A study of Homo sapiens
Mus musculus and Mus musculus and Homo sapiens with 16 samples.

Results

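The lymphoma and stroma compartments of adherent coculture are the human and mouse RNA read in the same 4 libraries, those of REC-1 cells that had adhered to MS-5 cells (Adh). Genes were compared between the compartments by joining human and mouse protein-coding genes of the same name, which gave 15826 gene pairs in 4 of the 16 libraries used here. REC-1 is a human mantle cell lymphoma (MCL) cell line and MS-5 is a mouse bone marrow stromal cell line, so each read pair can be given to a compartment by its species. For Adh, 5000000 REC-1 cells were added to 500000 MS-5 cells that had been seeded the day before, and the cells that had bound after 24 h were lysed together with the stroma. The other groups, also of 4 libraries each, were REC-1 cells that stayed in suspension above MS-5 in such cocultures (Susp), REC-1 cells cultured alone (Sep) and MS-5 cells cultured alone. No group carried a transgene, a knockdown or a drug. Each compartment is a single established line, so species, line and cell type cannot be told apart in any comparison between them. The study describes independent experiments, while the labels give replicate numbers and sample codes that share a number within a replicate. They name no experiment, so p-values measure the spread between these libraries.

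MCL is a lymphoma of mature B cells that lodge in lymph node and bone marrow, where stromal cells sustain them. B cells express the B cell receptor (BCR) and its signalling subunits CD79A and CD79B, while bone marrow stromal cells make collagens, matrix proteins and chemokines. The chemokine CXCL12 from stroma acts on its receptor CXCR4 on B cells, and the adhesion molecule VCAM1 binds the integrin VLA-4, made of the subunits ITGA4 and ITGB1.

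The separation of the compartments rests on bases that differ between the species' transcripts. The first coding bases over the length of 1 read are shown for CXCL12, the chemokine on which a main result turns, and for ACTB, a cytoskeletal actin read from both compartments, with the bases that differ between the species in capitals. They come from the GENCODE transcripts and read 5′ to 3′ on the coding strand.
CXCL12 human: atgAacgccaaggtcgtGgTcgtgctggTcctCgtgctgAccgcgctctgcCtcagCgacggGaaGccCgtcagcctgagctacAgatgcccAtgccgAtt
CXCL12 mouse: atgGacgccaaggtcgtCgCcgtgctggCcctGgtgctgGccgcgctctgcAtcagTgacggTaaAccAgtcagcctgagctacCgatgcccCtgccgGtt
ACTB human: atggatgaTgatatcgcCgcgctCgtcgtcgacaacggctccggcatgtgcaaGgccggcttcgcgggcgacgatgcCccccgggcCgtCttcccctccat
ACTB mouse: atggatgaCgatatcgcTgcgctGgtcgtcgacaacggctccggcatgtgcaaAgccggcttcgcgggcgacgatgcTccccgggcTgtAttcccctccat
CXCL12 lies at chr10:44370165-44386493 on the minus strand of GRCh38 and at chr6:117168535-117181367 on the plus strand of GRCm38, and ACTB at chr7:5526409-5563902 and chr5:142903115-142906754, both on the minus strand. These stretches differ at 14 bases for CXCL12 and at 7 bases for ACTB. Over its 360 coding bases, CXCL12 differs at 26, and windows of the read length hold from 0 to 17 differences with a median of 6. Of its 260 windows, 20 are identical between the species and carry no such information. ACTB differs at 91 of 1128 coding bases, and each of its windows holds at least 3 differences.

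The stroma supplied most of the RNA in every Adh library. The human share of counted reads was 28.2%, 26.0%, 18.3% and 20.2% in Adh replicates 1 to 4, with a mean of 23.2% ± 4.71 (SD, n = 4). The 95% Wilson interval of replicate 1 ran from 28.2038% to 28.2402% and covers counting error only, so libraries 1 and 2 stood above libraries 3 and 4 by far more than counting error. Per human read there were 2.54, 2.84, 4.46 and 3.96 mouse reads, although REC-1 cells were added in 10-fold excess over the MS-5 cells seeded. In bulk libraries, fewer cells of a type and less RNA per cell cannot be told apart. Human counts per Adh library ranged from 7758979 to 13241751 and mouse counts from 29495404 to 34615602, so levels of genes read from REC-1 rest on fewer reads than those of genes read from MS-5.

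The split between species left little carry-over. Among the 56 gene pairs with no count in MS-5 alone and at least 1000 human reads in each Adh library, mouse reads amounted to 0.0069% of the human reads and 42 pairs had none, and the highest value was 0.106%, for RCSD1. Among 195 pairs with no count in Sep and at least 1000 mouse reads, human reads amounted to 0.0033% of the mouse reads, 156 pairs had none and the highest value was 0.106%, for TACC2. The labels were checked against markers, all given as TPM, a transcript level per length of gene that is scaled to the same total in each compartment. Of 20 B cell and MCL markers, CD5 was near 0 in REC-1 at a mean of 0.499 TPM, and CCND1, the cyclin of MCL, was read from both compartments. MS-5 showed no read of DCN, LUM or THY1 and means of 0.0215 TPM for FAP and 0.0883 TPM for POSTN. Of the 15 stromal markers tested, 13 were higher in stroma, 1 was higher in lymphoma and 1 was not called. Some markers of other cell types were also read. Higher in lymphoma were all 3 T and NK cell markers tested, the 1 endothelial marker tested, 2 of 3 epithelial and 1 of 4 macrophage markers. Higher in stroma were all 3 adipocyte and bone markers tested, 2 of 4 macrophage and 1 of 3 epithelial markers. In REC-1 they included LCK at 13.5 TPM, CD3E at 9.53 TPM, PECAM1 at 15.8 TPM and EPCAM at 46.7 TPM. In MS-5 they included CD14 at 50.2 TPM and FABP4 at 167 TPM. Of the same lists, CD3D, CD4, CDH5, KDR, VWF, ADIPOQ, CSF1R and MRC1 stayed below 1 TPM in both compartments.

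**Figure D1:**
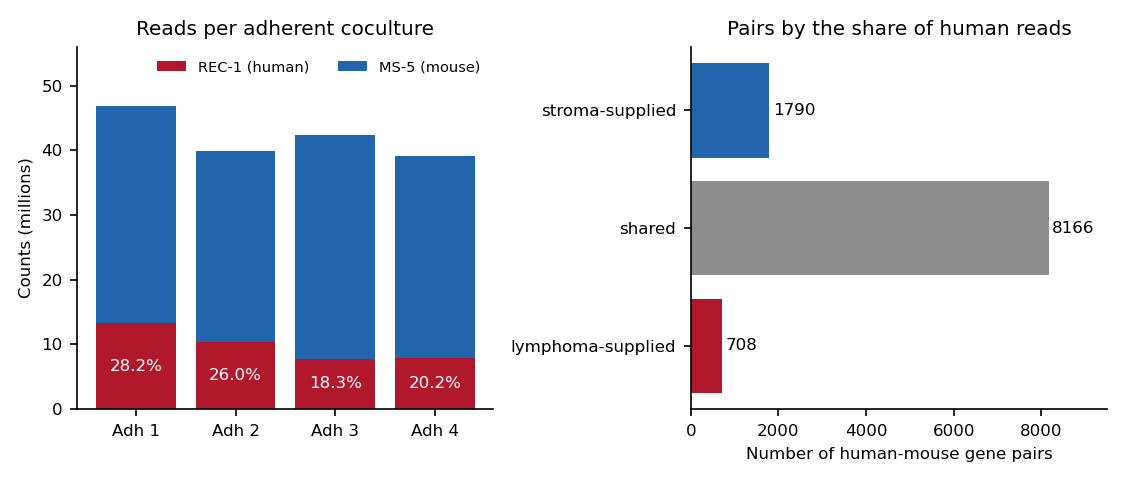
Left, human and mouse counts of the 4 Adh libraries, stacked, with human counts at the base; right, the number of gene pairs supplied by lymphoma, by stroma or by both. Mouse reads outnumber human reads in all 4 libraries, and 8166 of 10664 gene pairs are shared.

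Most genes read in the adherent coculture came from both cell types. Of the 10664 pairs with at least 20 reads in each library, 8166 (76.6%) were shared, 708 (6.64%) were lymphoma-supplied, with at least 95% human reads in each library, and 1790 (16.8%) were stroma-supplied, with at most 5% human reads in each. The other 5162 pairs had too few reads. Lymphoma-supplied pairs held 6.48% of the human reads on pairs and stroma-supplied pairs held 23.7% of the mouse reads. In 427 lymphoma-supplied pairs no mouse read was found in any of the 4 libraries, and in 540 stroma-supplied pairs no human read was found. The human share of the median shared pair was 30.5%, 28.3%, 19.97% and 21.9% in libraries 1 to 4 and so moved with the library's own human share. These classes describe whose RNA was in the dish and depend on how much RNA each compartment gave. Moves between the lymphoma-supplied and the stroma-supplied class were hardly possible by these definitions, and none occurred in the settings tried. At a threshold of 99%, 533 lymphoma-supplied and 1080 stroma-supplied pairs kept their class. With at least 100 reads 451 and 1588 did, and with shares of TPM in place of reads 708 and 1260 did.

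The lymphoma-supplied pairs with the highest levels included the BCR subunits and other genes of B cells and leukocytes. Genes of ribosomal proteins and of the mitochondrial genome were left out of this ranking and of those of the other classes. CD79A, the Ig-alpha chain, was at 3582, 4221, 3775 and 4139 TPM in the lymphoma of libraries 1 to 4 and at 0.156, 0, 0 and 0 TPM in the stroma. MS4A1, which encodes CD20, was at 1399.5, 1142, 1183 and 1165 TPM in lymphoma and had 2 mouse counts in all. CD79B, the Ig-beta chain, reached a mean of 1214 TPM ± 100.0 (SD, n = 4) with no mouse read, at least 9815-fold above what 3 mouse read pairs over the group would give. This floor of 3 read pairs is used for every gene without a read in a compartment. DTX1, an E3 ligase of the Notch pathway, was at 901, 1116, 1014 and 1184 TPM with no mouse read, at least 31389.8-fold higher in lymphoma. PNMA5 (1932 TPM ± 103), LDHB, a lactate dehydrogenase subunit (3335 TPM ± 131), ARHGDIB, a GDP dissociation inhibitor of blood cells (1299 TPM ± 66.1), CD53, a leukocyte tetraspanin (949 TPM ± 53.8), CORO1A, a leukocyte actin regulator (931 TPM ± 177), and CD74, the invariant chain of MHC class II (847 TPM ± 104), completed the 10 with the highest level outside those groups.

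Secreted and cytoskeletal proteins led the stroma-supplied pairs. SPP1, which encodes the secreted adhesion protein osteopontin, was at 19739, 14529, 15036 and 15711 TPM in stroma and at 43.1, 44.7, 50.9 and 48.0 TPM in lymphoma. The human SPP1 reads were also there without mouse cells, at 41.5 TPM in Sep. LGALS1, a secreted galectin, was at 7729, 7646, 7092 and 7399 TPM in stroma against 15.8, 21.8, 20.7 and 20.1 TPM in lymphoma. THBS2, a matrix thrombospondin (4378 TPM ± 126), S100A11 and S100A6, calcium-binding proteins (4219 TPM ± 147 and 3933 TPM ± 74.8), VIM, the intermediate filament vimentin (3960.4 TPM ± 249), and LGALS3, another galectin (2135 TPM ± 126), followed. The remaining 3 of the 10 were FTH1, MIF and EEF1G, whose human reads could hardly be counted. Human EEF1G, a translation elongation factor, had no read in any library, and 100% of its read windows occur elsewhere in the human transcripts while 99.7% of its exonic bases are overlapped by another gene, so uniquely counted reads were not to be had. For human MIF, a cytokine, these shares were 81.6% and 94.1%, and for human FTH1, ferritin heavy chain, 66.7% and 63.2%. The same held on the mouse side for genes of the mitochondrial genome such as MT-CO3, MT-CO2 and MT-ATP6, of whose mouse read windows 98.3% to 100% occur elsewhere, so their place among lymphoma-supplied pairs says nothing of their level in stroma. Of the classed pairs, 113 lymphoma-supplied, 337 stroma-supplied and 1547 shared ones exceed 20% in 1 of these measures. Among genes named here for their level, human LDHB (52.1% of windows), human THBS2 (34.4%), mouse S100A11 (33.3%), human ITGA4 (40.7%) and human ICAM1 (24.7%) also do, so some of their reads may not have been counted.

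The shared pairs with the highest levels in both compartments were genes of translation, protein folding, the cytoskeleton and energy supply. ACTB was at 6331, 6772, 5745 and 6622 TPM in lymphoma and at 7169, 7653, 7002 and 7486 TPM in stroma. EEF1A1, which delivers tRNA to the ribosome, was at 6506 TPM ± 314 and 14751 TPM ± 418. ATP5B, the beta subunit of ATP synthase, was at 7281 TPM ± 154 in lymphoma and at 1709 TPM ± 54.3 in stroma. HSP90AB1, HSPA8, EEF2, PTMA, SLC25A5, GAPDH and NPM1 made up the rest of the 10.

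**Figure D2:**
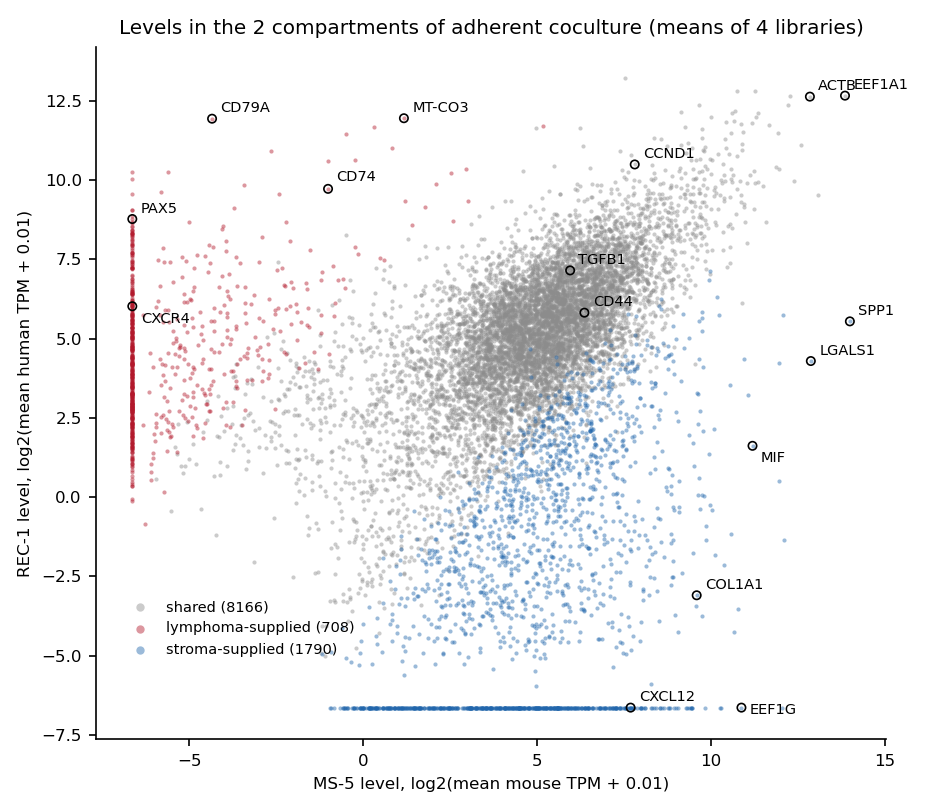
Mean level of each gene pair over the 4 Adh libraries, with stroma on the x axis and lymphoma on the y axis, both as log2(mean TPM + 0.01), colored by class. Points for CD79A and CXCR4 lie along the upper left edge and those for SPP1 and CXCL12 along the lower right edge, with shared pairs between them.

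Levels varied less across libraries in stroma, which had more reads, than in lymphoma. Of the pairs, 9173 reached 1 TPM in the lymphoma of each library, with a median coefficient of variation of 10.8%, and 9520 reached it in stroma, with a median of 7.502%. These medians cover different sets of pairs and were not taken at equal depth. Both compartments reached 1 TPM in each library for 7972 pairs, only lymphoma for 1080 and only stroma for 1168. Across those 7972 genes the levels in lymphoma and stroma had a Spearman correlation of 0.50, which describes genes read from the same 4 libraries and has no test.

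Levels were then tested between the compartments with gene length taken into account, calling a pair at a Benjamini-Hochberg adjusted p of at most 0.05 in edgeR's quasi-likelihood test and a difference of at least 2-fold. Of 11126 pairs tested, 7438 (66.9%) were called, 3613 (32.5%) higher in lymphoma and 3825 (34.4%) higher in stroma, with a median difference of -0.03 on the log2 scale. Since most pairs were called, the counts of each gene group below are read against these percentages. Scaling by library size alone in place of TMM moved the median of all pairs by 0.125 on the log2 scale. Both compartments come from the same libraries, but this test did not pair them. With the library number as a block, 7424 pairs were called.

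B cell identity genes stood on the lymphoma side as a group. All 19 tested B cell and MCL markers were higher in lymphoma, with a median log2 difference of 14.62. In BCR signalling 18 of 20 genes were higher in lymphoma and 2 were not called. Of 20 hematopoietic transcription factors, 16 were higher in lymphoma, 1 was higher in stroma and 3 were not called. PAX5, the transcription factor that maintains B cell identity, was at 450.3, 482, 401 and 418 TPM in lymphoma without a mouse read, at least 21914-fold higher. SYK, the kinase that binds phosphorylated CD79A and CD79B, was at 789, 808, 732 and 730.3 TPM, at least 40467-fold higher, and BTK, the kinase further down, was at 198 TPM ± 9.88, at least 3525-fold higher. LYN, the kinase that phosphorylates the BCR, was at 645 TPM ± 34.5 in lymphoma and 8.04 TPM ± 0.857 in stroma (log2 difference 6.25 ± 0.08 SE, adjusted p = 2e-17). SOX11, a transcription factor of MCL, was low at 10.1, 9.73, 8.51 and 9.001 TPM, again without a mouse read. Some B cell genes were read from both lines. CCND1 was at 1212, 1589, 1367 and 1609 TPM in lymphoma and at 235, 260.4, 202 and 196 TPM in stroma (log2 difference 2.63 ± 0.11 SE, adjusted p = 2.27e-12). EBF1, a transcription factor of early B cells, was at 47.7 TPM ± 1.47 and 46.7 TPM ± 3.75 and passed no threshold (log2 difference -0.04 ± 0.08 SE, adjusted p = 0.625), and neither did FOXO1 and FOXP1. S1PR1, a receptor that guides lymphocyte exit from tissue, was at 125 TPM ± 3.24 in lymphoma and 44.5 TPM ± 2.97 in stroma (log2 difference 1.42 ± 0.08 SE, adjusted p = 6.56e-11).

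Matrix genes were on the stroma side. Of 25 collagen genes tested, 18 were higher in stroma and 7 in lymphoma, and of 19 genes that crosslink, chaperone or cleave matrix, 18 were higher in stroma and 1 was not called. COL1A1, the main chain of type I collagen, was at 675, 902, 696 and 796 TPM in stroma and at 0.162, 0, 0 and 0.265 TPM in lymphoma. LOX, the lysyl oxidase that crosslinks collagen, was at 1662, 1251, 1610.5 and 1549.9 TPM in stroma and at a mean of 0.434 TPM in lymphoma. SERPINH1, a collagen chaperone, was at 1227 TPM ± 121 without a human read, at least 10075-fold higher in stroma. The 7 collagens higher in lymphoma included COL4A5, COL9A3 and COL19A1 at means of 14.7, 20.6 and 6.94 TPM, a chain of basement membrane and chains that sit on other fibrils. Proteoglycan genes were more divided, with 11 of 16 higher in stroma and 4 in lymphoma. BGN, the matrix proteoglycan biglycan, was at 1744 TPM ± 164 in stroma, whereas SRGN, the granule proteoglycan of blood cells, was at 269 TPM ± 21.9 in lymphoma. Of 15 mesenchymal transcription factors, 13 were higher in stroma, 1 was higher in lymphoma and 1 was not called. Those higher in stroma included PRRX1 (145 TPM ± 9.86 against 0.0141 TPM) and TWIST1 (107 TPM ± 6.80 against 1.70 TPM).

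Integrins, the receptors by which cells hold matrix and each other, were split by subunit. Of 19 genes with integrin names tested, 13 were higher in stroma and 5 in lymphoma, where ITGB1BP1 and ITGB3BP, which bind integrins, count as well. ITGA4, the alpha subunit of VLA-4, was at 46.8, 44.6, 43.9 and 38.9 TPM in lymphoma without a mouse read, at least 3441-fold higher. Its partner ITGB1 was read from both compartments, at 41.9, 38.3, 35.1 and 35.3 TPM in lymphoma and at 929.6, 846, 849 and 782 TPM in stroma (log2 difference -4.57 ± 0.08 SE, adjusted p = 1.51e-16). ITGA5, the alpha subunit that binds fibronectin, had no human read and was at 261 TPM ± 24.0 in stroma. Of these subunits, ITGA4 was thus read from lymphoma alone, ITGA5 from stroma alone and ITGB1 from both. Stroma held other alpha subunits too, such as ITGA3 at 33.3 TPM.

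**Figure D3:**
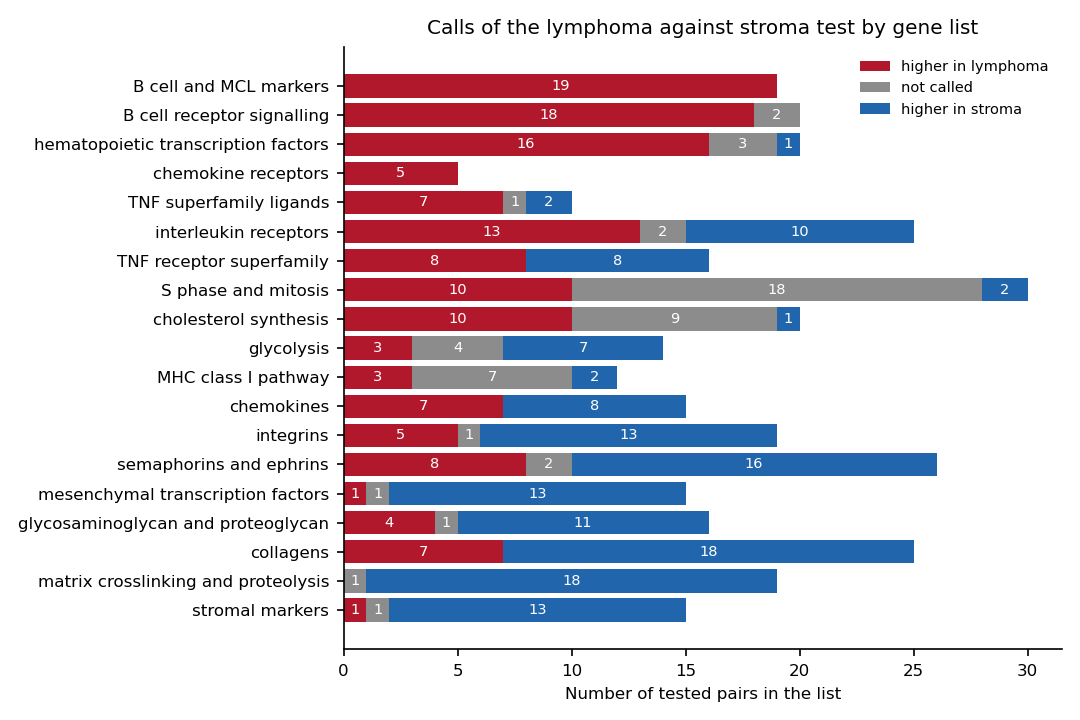
Number of tested genes of each group that were higher in lymphoma, not called or higher in stroma in the 4 Adh libraries, as stacked horizontal bars with counts on the x axis. B cell groups lie on the lymphoma side and collagens and matrix crosslinking genes on the stroma side, while S phase and mitosis genes are mostly not called.

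The chemokine receptors that could be tested were higher in lymphoma, while each compartment supplied chemokines of its own. Of 15 chemokine genes tested, 8 were higher in stroma and 7 in lymphoma, while all 5 chemokine receptors tested were higher in lymphoma and 18 of the 22 listed had too few reads to be classed. CXCL12 was at 246, 178, 199.7 and 199 TPM in stroma without a human read, at least 1651-fold higher. CXCR4 was at 65.0, 57.2, 74.4 and 63.4 TPM in lymphoma without a mouse read, at least 664-fold higher. Ligand and receptor of this axis were thus each read from a single compartment in all 4 libraries. ACKR3, an atypical receptor that also takes up CXCL12, was at 15.002, 14.2, 10.7 and 9.21 TPM in lymphoma and at a mean of 0.222 TPM in stroma. CCL7 and CCL2, which attract cells through CCR2, were at 655 TPM ± 53.5 and 254 TPM ± 16.3 in stroma without a human read, and CCR2 was at 7.17, 5.05, 5.70 and 7.23 TPM in lymphoma without a mouse read. CXCL14 was at 88.1, 70.8, 60.9 and 58.7 TPM in stroma and likewise had no human read. The lymphoma supplied CXCL10 (109.7 TPM ± 13.9), CCL22 (91.4 TPM ± 15.2), CCL4 (36.7 TPM ± 7.15) and CXCL9 (31.7 TPM ± 5.49), chemokines that attract T cells and myeloid cells, with stroma means of at most 0.0236 TPM.

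Among the tumor necrosis factor (TNF) family, 7 of 10 ligands tested were higher in lymphoma and 2 in stroma, while the 16 receptors were divided evenly, 8 on each side. The sign of the median difference of these receptors, -0.11 on the log2 scale, depended on how counts were scaled. CD70, a ligand for T cell costimulation, was at 263, 391, 284 and 349 TPM in lymphoma without a mouse read, and LTB, a subunit of lymphotoxin, was at 127, 204, 151 and 187 TPM. LTBR, the receptor of lymphotoxin, was at 177, 194, 178 and 201 TPM in stroma without a human read, at least 1509-fold higher. LTA, the other subunit of lymphotoxin, was at a mean of 0.374 TPM in lymphoma, so LTA and LTB with LTBR met the criterion used below for ligand-receptor pairs in no direction. TNF was at 11.8, 12.8, 9.50 and 9.23 TPM in lymphoma and had 4 mouse counts in 1 library. Its receptor TNFRSF1A was at 260.2, 262, 237 and 245 TPM in stroma and had 2 human counts, whereas TNFRSF1B was read from both, at 219.9 TPM ± 19.4 in lymphoma and 71.5 TPM ± 3.35 in stroma (log2 difference 1.55 ± 0.08 SE, adjusted p = 1.77e-11). The B cell members TNFRSF13B (222 TPM ± 19.8), CD40 (118 TPM ± 11.4) and TNFRSF13C (49.7 TPM ± 7.13), receptors for survival and costimulatory signals, were on the lymphoma side. Interleukin receptors were more often higher in lymphoma, 13 of 25 against 10 in stroma. IL10RA was at 189 TPM ± 15.5 in lymphoma without a mouse read, and IL1R1 was at 30.9 TPM ± 2.92 in stroma without a human read.

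Housekeeping groups differed less. Of 30 genes of S phase and mitosis, 18 were not called, 10 were higher in lymphoma (4 without gene lengths) and 2 in stroma. PCNA, the sliding clamp of DNA replication, was at 2209.7, 2068, 2153 and 2219.7 TPM in lymphoma and at 426, 428, 432 and 428 TPM in stroma (log2 difference 2.27 ± 0.06 SE, adjusted p = 6.48e-15), whereas RRM2, a subunit of ribonucleotide reductase, was at 224 TPM ± 12.8 and 1301 TPM ± 117 (log2 difference -2.60 ± 0.07 SE, adjusted p = 1.2e-14). Genes of cholesterol synthesis were higher in lymphoma in 10 of 20 cases and in stroma in 1, and 9 were not called. Glycolysis leaned the other way, with 7 of 14 genes higher in stroma and 3 in lymphoma, among the former LDHA (962 TPM ± 42.1 against 2454 TPM ± 61.9) and PKM (544 TPM ± 14.6 against 2391 TPM ± 92.4). As LDHB was lymphoma-supplied, the subunits of lactate dehydrogenase were at unlike levels in the compartments.

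Ligands and receptors were then paired from a list of 236 ligand-receptor pairs, in which a pair was counted for a direction when the ligand in the sending compartment and each receptor subunit in the receiving compartment reached 1 TPM in every library. The counts describe RNA only, since binding was not measured and a mouse ligand need not act on a human receptor. Stroma to lymphoma was possible for 46 pairs, lymphoma to stroma for 38, lymphoma to lymphoma for 33 and stroma to stroma for 55, and 139 pairs met the criterion in no direction. The stroma expressed more of the ligands, 86 of 187 against 61 in lymphoma, with 33 in both. For receptor subunits the compartments were closer, 93 of 191 in stroma and 83 in lymphoma, with 46 in both. Of the ligands tested for level, 71 of 117 were higher in stroma and 36 in lymphoma, with a median log2 difference of -3.06 against -0.03 over all pairs. Of the receptor subunits, 72 of 137 were higher in stroma and 44 in lymphoma, with a median of -1.35.

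Only from stroma to lymphoma could 12 pairs be formed, and 5 of these were chemokine pairs. These 5 were CXCL12 with CXCR4, CXCL12 with ACKR3, CXCL14 with CXCR4, and CCL2 and CCL7 with CCR2, and none of the 30 chemokine pairs met the criterion in any other direction. This rests on the demand for 1 TPM in every library. CXCR3 and CCR1 reached it in lymphoma by mean, at 1.02 and 1.57 TPM, but not in every library. By means, CXCL9 and CXCL10 with CXCR3, and CCL3 and CCL5 with CCR1, would be possible within lymphoma. VCAM1 with ITGA4 and ITGB1 was another. VCAM1 was low, at 6.32, 5.83, 6.16 and 6.32 TPM in stroma without a human read, at least 48.7-fold higher, and varied little between libraries. MIF with CD74 and CXCR4 was counted only in this direction too, but human MIF could hardly be counted, as given above. The remaining 5 were VCAM1 with ITGA4 and ITGB7, THBS1 with CD36, COL1A1 with LAIR1, WNT4 with FZD6 and C3 with CR2.

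Ranked by the lower level of their members, the pairs from stroma to lymphoma were led by matrix and adhesion proteins. TIMP1, an inhibitor of metalloproteases, was at 753, 758, 682 and 683 TPM in stroma, and CD63, a tetraspanin listed as its receptor, at 271, 292, 289.8 and 277 TPM in lymphoma. THBS1, the matrix protein thrombospondin 1, was at 1573, 1897, 1585 and 1465 TPM in stroma, and its receptor CD47 at 214, 185, 205 and 172 TPM in lymphoma. APP with CD74 and JAM2 with JAM3 came next. The lower members of JAM2 with JAM3 and of CXCL12 with CXCR4 were almost level, at 65.4 and 65.0 TPM, so their order is open. JAM2, a junctional adhesion molecule, was at 75.8, 61.2, 62.8 and 62.0 TPM in stroma, and its partner JAM3 at 99.2, 100.96, 101.1 and 84.1 TPM in lymphoma, where JAM2 itself was at 5.59, 4.23, 2.58 and 2.505 TPM. FN1, fibronectin, was at 441, 481, 387 and 345 TPM in stroma, and paired with the ITGA4 and ITGB1 of lymphoma given above. JAM2 was thus higher in stroma and JAM3 high in lymphoma in all 4 libraries, whereas CD63, CD47, APP and ITGB1 were expressed by both compartments, and APP was at 130.1 TPM in stroma and 235.7 TPM in lymphoma.

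In the other direction, 7 pairs could be formed only from lymphoma to stroma, and they were TNF with TNFRSF1A, PDGFD with PDGFRB, BMP6 with ACVR1 and BMPR2, ICAM1 and ICAM2 with ITGAL and ITGB2, SELPLG with SELP and SEMA7A with ITGA1 and ITGB1. PDGFD, a platelet-derived growth factor, was at 8.74, 6.998, 6.04 and 4.19 TPM in lymphoma, and its receptor PDGFRB, a marker of stroma, at 220.1, 216, 200.3 and 197 TPM in stroma. ICAM1, an adhesion ligand, was at 87.6, 89.8, 82.3 and 100.6 TPM in lymphoma without a mouse read, at least 2219-fold higher. SEMA4D, a semaphorin of lymphocytes, was at 13.4, 14.9, 14.9 and 14.3 TPM in lymphoma, and its receptor PLXNB2 at 220.4, 244, 205 and 214 TPM in stroma. WNT3 was at 9.22, 9.17, 7.05 and 7.29 TPM in lymphoma without a mouse read, and the receptor FZD1 at 109, 106, 97.7 and 114 TPM in stroma. By the lower level of its members, CALR with LRP1 led this direction. CALR, a chaperone that can reach the cell surface, did not differ past the threshold (log2 difference 0.11 ± 0.05 SE, adjusted p = 0.0782), whereas LRP1, a scavenger receptor, was at 273, 405, 286 and 245 TPM in stroma and 1.79, 1.61, 2.06 and 1.34 TPM in lymphoma.

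A set of 10 pairs was possible in all 4 directions. TGFB1, which acts on many cell types, was at 108, 155, 139 and 167 TPM in lymphoma and at 61.7, 65.7, 57.6 and 61.4 TPM in stroma (log2 difference 1.14 ± 0.12 SE, adjusted p = 1.76e-07). Its receptors TGFBR1 and TGFBR2 were at 48.1 TPM ± 5.45 and 55.1 TPM ± 6.98 in lymphoma and at 37.8 TPM ± 4.48 and 60.4 TPM ± 2.65 in stroma, and neither difference reached 2-fold. CD44, a receptor for hyaluronan and osteopontin, was at 61.1, 56.9, 55.0 and 52.8 TPM in lymphoma and at 92.3, 88.7, 75.9 and 70.6 TPM in stroma (log2 difference -0.61 ± 0.08 SE, adjusted p = 6.04e-06), a gap short of 2-fold although the groups did not overlap. The other pairs of this set were SPP1 with CD44, CD47 with SIRPA, CALR with LRP1, NAMPT with INSR, JAG1 with NOTCH1, NOTCH2 and NOTCH3, GDF11 with ACVR1B and ACVR2B, and BMP5 with BMPR1A and BMPR2.

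**Figure D4:**
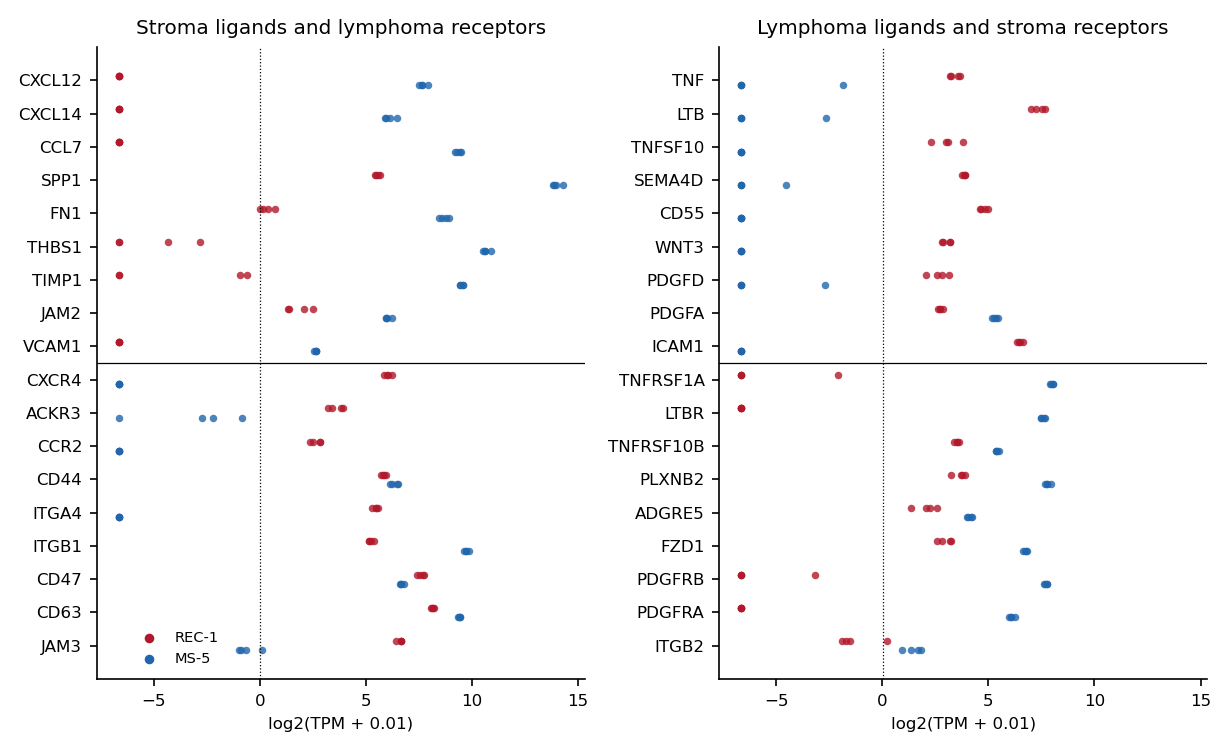
Levels of 18 ligand and receptor genes of each direction in the 4 Adh libraries, 1 point per library and compartment, on a log2 axis of TPM. In the stroma to lymphoma panel CXCL12 is seen in stroma alone and CXCR4 in lymphoma alone, and in the lymphoma to stroma panel the points for TNFRSF1A and PDGFRB lie far higher in stroma.

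The families of the list differed in direction. Matrix pairs were possible from stroma to stroma for 13 of 24, against 8 from stroma to lymphoma, 6 from lymphoma to stroma and 4 within lymphoma. Growth factor pairs were possible from stroma to stroma for 15 of 37, against 6, 6 and 2, and 20 met the criterion in no direction. Guidance molecules had 6 of 18 pairs from lymphoma to stroma, 3 from stroma to lymphoma, 5 within lymphoma and 6 within stroma, and cytokines had 4 of 35 from stroma to lymphoma, 0 from lymphoma to stroma, 1 within lymphoma and 4 within stroma. A pair can count in several directions.

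Whether the listed ligands and receptors of each compartment differed between conditions was tested on each species' full gene table, with calls at an adjusted p of at most 0.05 in edgeR's quasi-likelihood test and a difference of at least 1.5-fold. Between Adh and Susp REC-1 cells 3 of 168 listed genes were called, where 0.778% of all 12861 genes were. Over all genes, 14 calls were higher and 86 lower in Adh. CD44 was at 30.6, 22.3, 31.1 and 32.1 TPM in Susp, below each Adh value given above (log2 difference 0.86 ± 0.11 SE, adjusted p = 0.000476). BMP5, a bone morphogenetic protein, was at 20.5, 22.0, 26.4 and 21.8 TPM in Adh and at 13.01, 8.13, 10.9 and 13.2 TPM in Susp, and WNT3 was at 15.1, 15.5, 12.9 and 14.8 TPM in Susp, above its Adh values. Groups did not overlap for these 3 genes, which were picked by their call. The share of all genes without overlap is not given here. The calls of BMP5 and WNT3 were lost when replicate 3 or 4 was left out (adjusted p of 0.184 and 0.0556 for BMP5 and of 0.177 and 0.0624 for WNT3) and that of WNT3 also without replicate 1 (adjusted p = 0.0546), and over all genes the 100 calls fell to 25 and 28 without replicates 3 and 4.

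Between Adh and Sep cells, which share the Adh libraries with the comparison above, 8 of 168 listed genes were called, where 2.39% of all genes were. Over all genes, 75 calls were higher and 233 lower in Adh. CD86, a costimulatory ligand of B cells, was at 55.2, 74.997, 67.4 and 56.5 TPM in Adh and at 22.9, 18.1, 22.7 and 16.8 TPM in Sep (log2 difference 1.67 ± 0.13 SE, adjusted p = 5.37e-06). IL7R, the alpha chain of the interleukin 7 receptor, was at 13.6, 16.0, 13.4 and 12.1 TPM against 7.15, 5.43, 8.83 and 4.95 TPM, and CXCL10 was at 110.1, 111, 91.8 and 126 TPM against 67.5, 60.8, 47.8 and 41.2 TPM. Each Adh library was above each Sep library for these 3 genes, again picked from the calls and without the share over all genes. CXCL9 (log2 difference 0.92 ± 0.14 SE), TNFSF9 (0.72 ± 0.19) and TNFRSF18 (2.33 ± 0.48) were also higher in Adh, and WNT3 (-1.03 ± 0.18) and CSF1 (-0.60 ± 0.15) lower, at adjusted p-values of 0.00128, 0.0438, 0.0134, 0.00325 and 0.0339. Of these, TNFSF9 lost its call without any 1 of the 4 replicates (adjusted p from 0.0728 to 0.182), CSF1 without replicates 2, 3 or 4 (0.0807 to 0.247), WNT3 without replicates 3 or 4 (0.0545 and 0.0685) and TNFRSF18 without replicate 3 (0.146), while all 308 calls fell to 105 and 92 without replicates 3 and 4. CXCR4 was at 65.0 TPM ± 7.10 in Adh, 62.9 TPM ± 4.92 in Susp and 83.6 TPM ± 6.35 in Sep and was called in neither comparison (adjusted p = 0.77 and 0.0622). ITGA4 was at 43.6 TPM ± 3.33 in Adh, 36.4 TPM ± 10.4 in Susp and 51.1 TPM ± 2.84 in Sep, and was not called either (adjusted p = 0.532 and 0.407).

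In the stroma, MS-5 cells under adhered REC-1 cells were compared with MS-5 cells alone. Here 7 of 199 listed genes were called and each was lower in coculture, where 0.205% of all 12201 genes were called. Over all genes, 20 of the 25 calls were lower in coculture as well. Ccl2, the monocyte chemokine, was at 263, 269, 233 and 251 TPM in coculture and at 359, 425, 372 and 406 TPM alone (log2 difference -0.62 ± 0.07 SE, adjusted p = 0.000264). Cxcl5 was at 41.9, 32.8, 62.4 and 64.5 TPM against 72.9, 131, 121 and 176 TPM, and Cxcl1, also a neutrophil chemokine, at 8.01, 6.62, 7.26 and 6.60 TPM against 10.7, 13.9, 16.3 and 15.5 TPM. Every coculture library was below every library of MS-5 alone for these 3 genes. They were picked from the calls, and the share of all mouse genes without overlap is not given here. Sema3c, Plaur, Itgb7 and Il1rl1 were lower by log2 differences of -0.59, -0.61, -0.68 and -0.68, at adjusted p-values of 0.0185, 0.016, 0.0147 and 0.0188. Ccl2 kept its call whichever replicate was left out, and the other 6 genes lost theirs without replicate 3 (adjusted p from 0.142 to 0.217), most also without 2 or 4, as the 25 calls over all genes fell to 11, 7 and 8 without replicates 2, 3 and 4. Cxcl12 was at 206 TPM ± 28.4 in coculture and 149 TPM ± 23.3 alone, a difference of 0.46 ± 0.10 SE on the log2 scale that stayed under 1.5-fold (adjusted p = 0.0486), and Vcam1 was at 6.16 TPM ± 0.229 and 6.26 TPM ± 0.471 (adjusted p = 0.955).

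**Figure D5:**
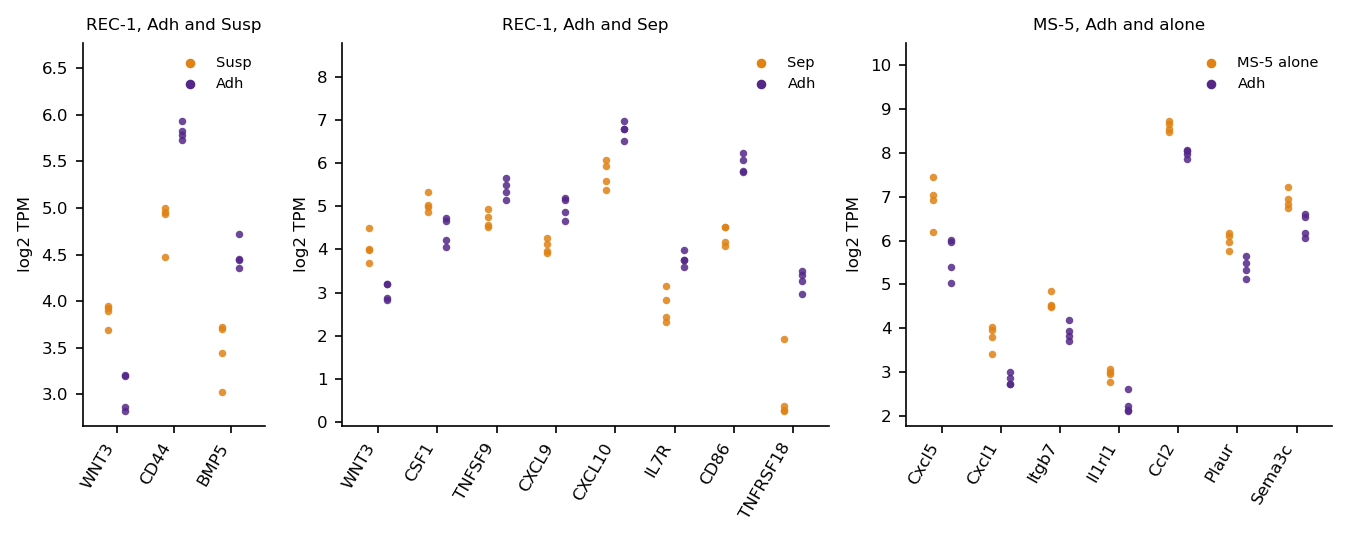
Levels of the ligand and receptor genes called between conditions, as log2 TPM, 1 point per library, in 3 panels for REC-1 in Adh and Susp, REC-1 in Adh and Sep, and MS-5 in coculture and alone. The Adh points of CD44 and CD86 lie above those of the other group, and the coculture points of all 7 MS-5 genes have the lower mean.

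Finally, the gap between the compartments, that is the difference of a gene's level in lymphoma from that in stroma, was compared between coculture (Adh) and the lines cultured apart (Sep against MS-5 alone) with an interaction term. Of 11223 pairs, 172 (1.53%) were called, 52 (0.463%) with a gap shifted towards lymphoma and 120 (1.07%) towards stroma, and without genes of the mitochondrial genome these were 37 and 174. Of these 172 pairs, 55 were stroma-supplied, 5 lymphoma-supplied and 111 shared. The gaps of the libraries did not overlap between coculture and monoculture for 157 of the 172, as for 12.97% of all pairs tested. Without replicates 2, 3 and 4 the number of calls fell to 83, 34 and 53. EMILIN2, a matrix glycoprotein, was at 6.89, 5.76, 4.36 and 4.97 TPM in the lymphoma of Adh and at 0.817, 1.26, 0.632 and 0.921 TPM in Sep, while stroma was at 111 TPM ± 13.2 and 107 TPM ± 6.24 (change of the gap 2.55 ± 0.23 SE on the log2 scale, adjusted p = 2.2e-06). Its human reads in Adh, between 46 and 122 counts, were 0.891% to 2.08% of its reads, and carry-over for this gene itself was not measured. S1PR2, a receptor that confines B cells to germinal centers and was chosen after its values were seen, shifted the other way. It was at 2.81, 4.86, 4.04 and 4.91 TPM in the lymphoma of Adh and at 14.6, 12.8, 12.6 and 13.2 TPM in Sep, with stroma at 26.6 TPM ± 1.85 and 25.8 TPM ± 0.693 (change of the gap -1.78 ± 0.18 SE, adjusted p = 9.07e-06). For both genes it was the counted human level that differed between coculture and monoculture, with stroma levels within the spread of the libraries. Whether carry-over of mouse reads added to the human level of EMILIN2 in Adh was not tested. SKIL, a repressor of TGF-beta signalling also chosen after its values were seen, was at 32.4 TPM ± 4.76 in Adh and 78.7 TPM ± 11.1 in Sep, with 28.4 TPM ± 5.67 and 27.2 TPM ± 2.08 in stroma (change of the gap -1.35 ± 0.18 SE, adjusted p = 0.000308).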

How the data were processed

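Gene counts of 16 mixed or single-species RNA-seq libraries were used, 4 each of Adh, Susp, Sep and MS-5, grouped by the labels. The deposited values are raw counts, which the authors made by separating human from mouse reads with Xenome, aligning with STAR 2.5.1b and counting uniquely mapped reads per gene with featureCounts (Subread 1.5.2) on Ensembl 87 annotation of GRCh38 and GRCm38. Poly-A libraries without strand marking were used, so overlapping genes cannot be told apart by strand. Of genes at low counts 65.0% to 79.2% had even counts, which both mates of a pair being counted would give, so intervals used halved counts and a level at 0 was bounded by 3 read pairs (6 counts) over the group. The 20 columns of other samples were not used.

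Of 58051 human and 49671 mouse genes, 19961 and 22050 were protein-coding, 15853 joined by upper-cased name and 15826 had exon lengths (GENCODE releases 44 and 21). Human genes without a mouse gene of the same name, such as MHC class II, were left out. TPM were computed over protein-coding genes within each compartment. Tests used edgeR 4.0.16 in R 4.3.3 with TMM, filterByExpr and the quasi-likelihood test, with gene length as an offset between compartments, 1 model of the 12 human columns for REC-1 and 1 of the 8 mouse columns for MS-5. Code was tested on simulated counts. The alternatives were DESeq2 1.42.0, other scalings, filters and thresholds, thinned counts, the replicate number as a block and each replicate left out. Those on duplicated or overlapped bases, on halved counts and on pairs at 1 TPM in both compartments were chosen after seeing the data.

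The genes, lists and ligand-receptor pairs were chosen with earlier results of these data known. The text names the 10 pairs of each class with the highest level, markers, genes the study discusses, up to 4 genes per list and side, the 12 ligand-receptor pairs with the highest lower level in each direction, ligands and receptors called between conditions, pairs possible in 1 direction only and the 5 largest changes of the gap each way among calls without overlap and with at least 10 CPM in 1 group. S1PR2 and SKIL stand outside this rule. Some genes are not reported here.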

Additional observations from a re-analysis of the deposited data

Results flagged for a closer look

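Levels of named genes in the 4 Adh libraries were searched for a library far from the other 3. The gap of that library to its nearest neighbour, divided by the range of the 4, exceeded Dixon's 95% critical value for 4 values in 5 of 210 groups of values, where chance flags about 1 in 20. These were MS4A1 in lymphoma (0.842, with library 1 high at 1399.5 TPM), LGALS3 in lymphoma (0.849, with library 4 high at 11.9 TPM), JAM2 in stroma (0.896, with library 1 high at 75.8 TPM), JAM3 in lymphoma (0.89, with library 4 low at 84.1 TPM) and SRGN in lymphoma (0.878, with library 4 low at 236 TPM).

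For 10 genes the gap between lymphoma and stroma differed between coculture and monoculture by the interaction test. The changes towards lymphoma were 5.11 for ASS1, 4.06 for CSTF2T, 2.91 for TMEM151A, 2.89 for SNX19 and 2.55 for EMILIN2 on the log2 scale, and those towards stroma were -4.79 for EPHB4, -4.74 for C1QTNF1, -4.63 for SAMD14, -4.38 for MFNG and -2.01 for PTGR2. Apart from EMILIN2 they rest on few reads. ASS1 had 0, 2, 4 and 2 human counts in Adh and none in Sep, EPHB4, C1QTNF1 and SAMD14 had no human count in Adh and at most 0.254 TPM in Sep, and MFNG had no mouse count in MS-5 alone and at most 0.251 TPM in coculture, so their fitted sizes depend on the prior count. Each of these 10 calls except that of EMILIN2 was lost without at least 2 of the 4 replicates.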

How the results depend on the processing

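Lymphoma against stroma gave 4544 calls (2151 higher in lymphoma, 2393 in stroma) with at least 10 counts in every column, which tests fewer pairs, and 3519 (1572 and 1947) at an 8-fold minimum. All other settings, among them DESeq2, library-size and upper-quartile scaling, thinning, halved counts and the replicate block (7424), stayed within 1.5 times of 7438. Without gene lengths the difference turned to 0.46 for EEF1A1, 1.29 for NPM1 and 0.62 for NAMPT, and the median of the TNF receptors, of cytosolic ribosomal proteins and of complex I to V subunits changed sign under other scalings or without lengths. Stroma-supplied pairs fell to 1080 at 99%, and lymphoma-supplied pairs to 451 with at least 100 reads. At 5 TPM 21, 16 and 14 ligand-receptor pairs remained possible from stroma to lymphoma, lymphoma to stroma and within lymphoma, and the last was 51 with the mean of the libraries and 21 without members over 20% duplicated or overlapped bases.

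The change of the gap gave 262 calls (225 towards stroma) without a low-count filter, 263 (102 towards lymphoma) without a fold minimum and 235 with the replicate block, and 98 calls towards lymphoma with DESeq2, 34 with halved and 33 with thinned counts. Leaving out a replicate gave 34 to 210 calls, 11 to 48 towards lymphoma and 23 to 162 towards stroma.

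Adh against Susp gave 282 calls (64 higher and 218 lower in Adh, 7 listed ligands or receptors) with DESeq2, 341 (45, 296 and 7) without a filter and 281 (41, 240 and 6) with the replicate block. The block compares libraries of the same number. The study describes Adh and Susp as fractions of the same cocultures, so libraries of the same number may come from 1 culture, which the labels do not state. Leaving out a replicate number gave 25 to 78 calls, 2 to 9 higher and 23 to 69 lower, with 1 to 3 listed genes, and leaving out Susp replicate 2 alone gave 89 (75 lower). Adh against Sep gave 527 calls (129 higher, 398 lower) with DESeq2, 503 (405 lower) without a filter, 384 with the replicate block and 519 (128 higher, 391 lower) without Susp replicate 2, and leaving out a replicate gave 92 to 304 calls, 22 to 60 higher and 69 to 246 lower, with 4 to 9 listed genes. MS-5 gave 11 higher genes with DESeq2, 45 calls (19 higher) without a filter and 45 (16 higher) with the replicate block, and leaving out a replicate gave 7 to 27 calls, 1 to 4 higher and 6 to 24 lower, with 1 to 7 listed genes. The cause of these moves was not tested. Libraries were to count as paired only if deviations from the group mean had r over 0.1 in each of the 4 same-numbered pairs. The lowest and highest r were -0.03 and 0.34 in Adh against Susp, 0.01 and 0.36 in Adh against Sep, and 0.03 and 0.29 in MS-5. By this rule the main tests did not pair replicates, which does not show that the libraries were unpaired. Human and mouse columns of Adh do come from the same libraries, where r ran from 0.04 to 0.13, and they were not paired either. The block changed no other count by over 1.5 times. Depth limits low human genes most, since human counts are the fewest in Adh.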

Other observations

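Other groups of genes, not described above, also divided between the compartments. All 6 matrix metalloproteases tested were higher in stroma, led by MMP14 at 120.2 TPM ± 7.60 (SD, n = 4) and MMP2 at 116 TPM ± 5.17, the latter without a human read. Of 23 HOX genes tested, 16 were higher in stroma and 4 in lymphoma, with HOXC10 at 155 TPM ± 6.76 in stroma and HOXC4 at 61.2 TPM ± 5.72 in lymphoma, where HOXC10 was at 2.74 TPM and HOXC4 in stroma at 5.62 TPM. Of 16 RGS proteins, which switch off G protein signals, 10 were higher in lymphoma and 5 in stroma, and RGS13, known from germinal center B cells, was at 41.0 TPM ± 3.09 without a mouse read. Of 78 mitochondrial ribosomal proteins 34 were higher in lymphoma and 13 in stroma (27 and 6 without gene lengths), and of 21 spliceosome proteins 14 were higher in lymphoma and 0 in stroma, at 32.5% and 34.4% of all pairs tested. Of 4 insulin-like growth factor binding proteins tested, 3 were higher in stroma and 1, IGFBP2, in lymphoma (0.875 TPM without a mouse read). IGFBP6 and IGFBP7 were at 1106 TPM ± 161 and 701 TPM ± 23.2 in stroma and at 0.271 and 0 TPM in lymphoma.

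Toll-like receptors, which sense microbial products, were divided by receptor. TLR1, TLR6 and TLR7 were higher in lymphoma, at 20.6, 28.9 and 24.0 TPM, and TLR2, TLR3 and TLR4 in stroma, at 31.7, 6.45 and 51.1 TPM. Frizzled receptors were divided as well, with FZD3 and FZD6 in lymphoma (6.00 and 25.8 TPM, without a mouse read) and FZD1, FZD2 and FZD7 in stroma (107, 43.3 and 60.1 TPM).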
